A study of Homo sapiens with 12 samples.

Results

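The 39 genes described here encode serum response factor (SRF), its actin-regulated cofactors MRTFA and MRTFB, and the actins, actin-binding proteins, myosin II chains and focal adhesion proteins that this axis is known to control. They were taken by symbol from the deposited table of newly made RNA, which holds 23434 genes, and all 39 were found in it. SRF binds a short DNA element called the CArG box. MRTFs are held inactive in the cytoplasm by monomeric actin, and when actin polymerizes they are released, enter the nucleus and work with SRF on the genes of the contractile and adhesive cytoskeleton. A separate set of cofactors, the ternary complex factors, directs SRF to immediate-early genes such as FOS and EGR1 in response to growth factors. In osteosarcoma cells, which spread on a substrate, these genes build stress fibres and the adhesions that anchor them, and adherent cells lose and rebuild both when they round up for mitosis.

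U2OS is a human osteosarcoma cell line, here carrying MycER, a Myc protein fused to the estrogen receptor that becomes active in the presence of 4-hydroxytamoxifen (OHT). The 12 EU-seq libraries fall into 4 groups of 3: non-targeting shRNA (shNT), shNT with OHT, shRNA against CDK12 (shCDK12), and shCDK12 with OHT. In all groups the shRNA arrived by viral infection and was switched on with 1 µg/mL doxycycline, cells were arrested with nocodazole (100 ng/mL, 8 h), shaken off, released for 12 h, and labelled with 0.5 mM 5-ethynyl-uridine (EU) for the last 2 h. OHT was 300 nM for 40 h. The labels do not say whether replicates were separate cultures, so p-values measure the spread between these libraries, which may be technical. Cells shaken off in mitosis are round and attach again after release, and unsynchronized cells were not analysed here. Because EU-labelled RNA was captured, values reflect RNA made in a 2 h window and not the standing amount of each transcript.

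CDK12 itself (gene 51755) was not lower in the libraries labelled shCDK12. It stood at 323, 283 and 311 CPM (the count scaled to library size) in shNT and at 306, 279 and 304 CPM in libraries labelled shCDK12 (log2 fold change -0.04, edgeR adjusted p = 0.724). With OHT it was lower, at 454, 364 and 405 CPM in shNT and 216, 207 and 219 CPM in libraries labelled shCDK12 (log2 fold change -0.90, edgeR adjusted p = 9.12e-05). A short hairpin acts on finished mRNA and EU-seq measures newly made RNA, so the degree of silencing cannot be read from these libraries. The groups are therefore called by their labels throughout. An exchange of the labels shCDK12 and shCDK12 with OHT cannot be told apart from the labels as given: CDK12 was level in one pair of groups and lower in the other, and the responses to OHT in the backgrounds mirrored each other over all genes (described with the OHT responses). Under an exchange, the libraries at 216, 207 and 219 CPM would stand against shNT at 323, 283 and 311 CPM. Those at 306, 279 and 304 CPM would stand against shNT OHT at 454, 364 and 405 CPM. CDK12 would then be lower than shNT in both pairs of groups, without overlap, and higher upon OHT in both backgrounds. Which assignment is right was not tested. With these labels exchanged, every fold change upon OHT among the libraries labelled shCDK12 would have the opposite sign, and each comparison with shNT would pair other libraries. Values under the exchange, an alternative chosen after seeing the data, stand beside each comparison. Library totals ran from 1251695 to 10447836 counts, an 8.35-fold range, with the shNT OHT group shallowest (median 3297982) and the group labelled shCDK12 with OHT deepest (median 7173020). CPM values are scaled by TMM factors, and a fold change therefore says how a gene moved relative to the bulk of newly made RNA; the table has no mouse rows, so a change in total RNA synthesis cannot be seen.

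Promoters of some of these genes are shown first, because SRF reads the CArG box in them. RefSeq windows from 250 bases before to 50 bases after a start site (GRCh38.p14) were given for 36 of the 39 genes, with none for TAGLN, ACTB and MYL9. A strict CArG box was found in windows of 9 of the 36: FHL2, SRF, ACTN1, TGFB1I1, ACTG1, CNN2, TPM4, FHL1 and FLNA. By gene this was 25.0%, against 1.60% of all 27305 genes with a window. Counted by window, the box was in 11 of 77 windows of these genes (14.3%) and in 454 of all 35116 windows (1.29%). The CArG pattern, though not each match, is its own reverse complement, so a search of one strand covers both. The E-box CACGTG, the letters that Myc and Max are known to bind and a palindrome, was in 3 of the 77 windows (3.90%) and in 7.26% of all windows. By gene it was in 2 of the 36, against 8.77% of all genes with a window. Overlapping FHL2 windows share a CArG box and a CACGTG, so the counts by window hold each of these more than once. Below, capitals mark CArG boxes and, where present, CACGTG, and each sequence runs 5′ to 3′ on the strand of the gene. SRF and ACTG1 are shown because their newly made RNA rose upon OHT in shNT cells, and TGFB1I1 and FHL2 because both were low in the libraries labelled shCDK12. TGFB1I1 was scarce and passed the count filter only through the shNT libraries, so its low values lend no support. FHL2 has start sites far apart; of its 3 windows with a box, the first shown here overlaps chr2:105438480-105438779, which is not printed.
SRF, chr6:43171019-43171318, plus strand: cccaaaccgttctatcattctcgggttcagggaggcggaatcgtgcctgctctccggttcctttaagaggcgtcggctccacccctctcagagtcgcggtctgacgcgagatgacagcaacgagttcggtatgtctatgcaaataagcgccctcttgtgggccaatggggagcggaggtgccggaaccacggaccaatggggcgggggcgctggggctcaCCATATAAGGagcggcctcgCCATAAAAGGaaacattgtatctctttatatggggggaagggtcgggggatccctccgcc
ACTG1, chr17:81512750-81513049, minus strand: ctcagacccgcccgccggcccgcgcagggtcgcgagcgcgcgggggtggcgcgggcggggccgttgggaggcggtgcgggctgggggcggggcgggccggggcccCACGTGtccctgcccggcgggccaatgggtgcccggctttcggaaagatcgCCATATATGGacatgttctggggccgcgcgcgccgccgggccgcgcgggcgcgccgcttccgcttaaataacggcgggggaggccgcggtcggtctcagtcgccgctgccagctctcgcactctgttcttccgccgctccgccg
TGFB1I1, chr16:31472955-31473254, plus strand: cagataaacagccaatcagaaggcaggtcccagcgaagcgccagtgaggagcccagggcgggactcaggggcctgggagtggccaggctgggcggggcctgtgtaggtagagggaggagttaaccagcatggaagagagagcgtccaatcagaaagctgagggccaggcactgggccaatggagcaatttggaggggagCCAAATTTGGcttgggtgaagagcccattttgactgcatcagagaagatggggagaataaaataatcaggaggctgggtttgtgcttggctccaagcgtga
FHL2, chr2:105438464-105438763, minus strand: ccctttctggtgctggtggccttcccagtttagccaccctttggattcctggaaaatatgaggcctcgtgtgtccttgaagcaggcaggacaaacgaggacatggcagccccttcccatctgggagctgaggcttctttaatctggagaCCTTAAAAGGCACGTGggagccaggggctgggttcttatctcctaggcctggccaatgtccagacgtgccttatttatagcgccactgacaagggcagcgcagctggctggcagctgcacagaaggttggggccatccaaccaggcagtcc
FHL2, chr2:105399002-105399301, minus strand: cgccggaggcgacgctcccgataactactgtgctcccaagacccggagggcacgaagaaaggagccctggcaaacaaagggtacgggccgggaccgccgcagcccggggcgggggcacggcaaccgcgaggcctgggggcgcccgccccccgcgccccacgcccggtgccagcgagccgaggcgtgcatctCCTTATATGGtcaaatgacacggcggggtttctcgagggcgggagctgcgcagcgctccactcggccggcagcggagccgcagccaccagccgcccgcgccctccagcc
The SRF window holds a pair of boxes, from 30 to 21 and from 10 to 1 bases before the start. In ACTG1 the box lies 94 to 85 bases before the start and CACGTG 145 to 140. In the first FHL2 window CACGTG follows the box without a gap. In the other FHL2 window the box lies 59 to 50 bases before the start, and in TGFB1I1 51 to 42. A match in these letters is a description and not a measured site of binding.

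The 39 genes made up 1.25% to 1.31% of counts in shNT libraries and 1.24% to 1.53% in shNT OHT libraries. With the shCDK12 label they made up 0.951% to 1.01%, and with OHT 1.00% to 1.08%. Every library labelled shCDK12 thus gave these genes a smaller share of newly made RNA than every shNT library, with or without OHT. For 18 of the 39 genes all 6 libraries labelled shCDK12 were below all 6 shNT libraries, against 12% of the 11699 genes tested, and for 1, LIMA1, they were above, against 10.7%. These values do not depend on which of the libraries labelled shCDK12 received OHT. Of the 18, TGFB1I1 and ACTA2 passed the count filter only through the shNT libraries, so they lend no support. The map of all 39 genes in all libraries shows that this was not uniform. Without OHT, a block of LIM, adhesion and crosslinking genes was low in the libraries labelled shCDK12. SRF, ACTB, ACTG1, CNN1, FHL1 and LIMA1 were not low there. With OHT, SRF, ACTB, ACTG1 and CNN1 were lower in the libraries labelled shCDK12 than in shNT, without overlap, and FHL1 and LIMA1 were not.

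**Figure D1:**
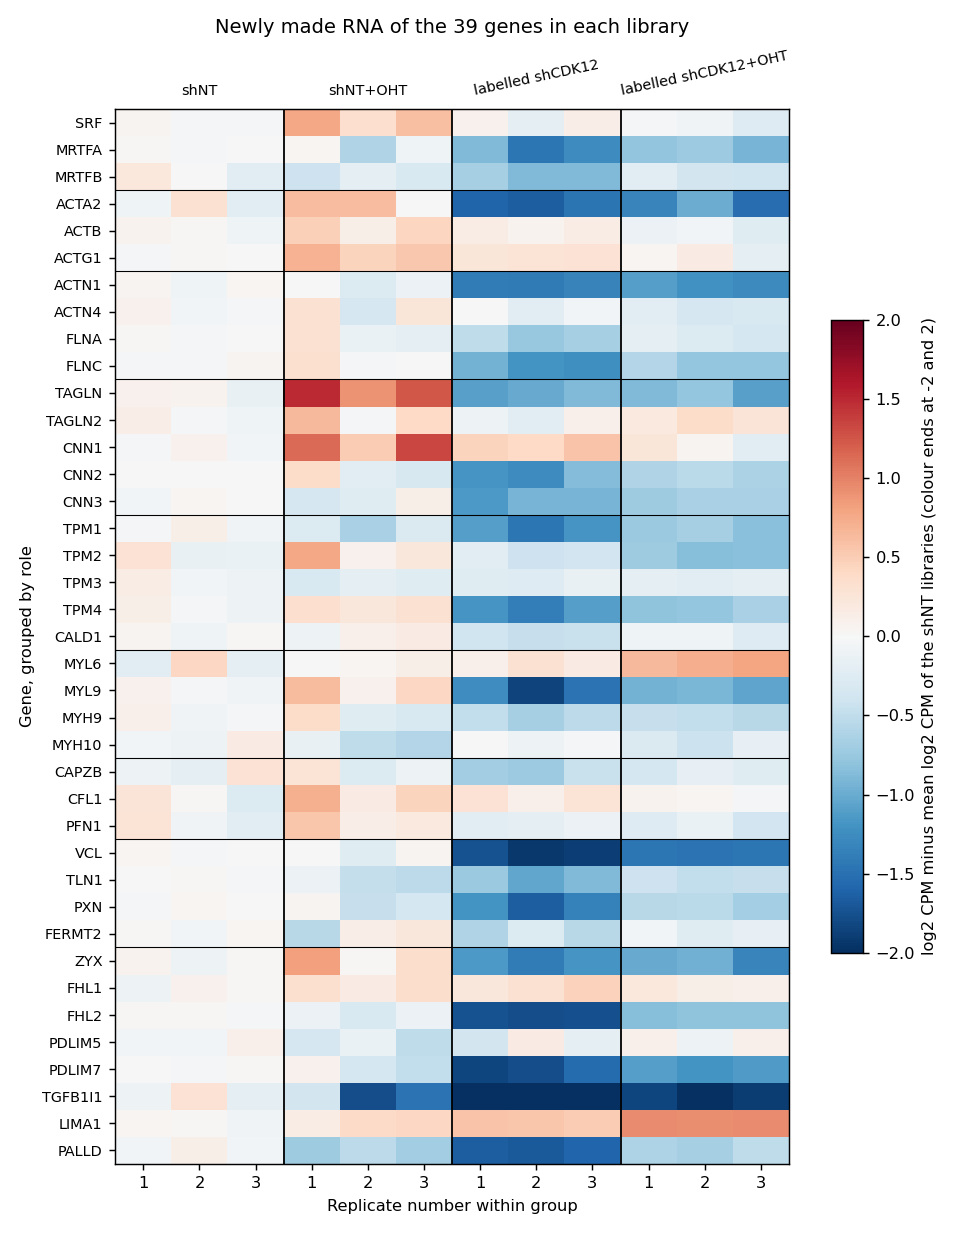
Newly made RNA of the 39 genes (rows, grouped by role) in each of the 12 libraries (columns, 3 per group), as log2 CPM minus the mean of the 3 shNT libraries, red higher and blue lower. VCL, FHL2, PDLIM7, PALLD and TGFB1I1 are dark blue in the 3 libraries labelled shCDK12, and TAGLN and CNN1 are red in the 3 shNT OHT libraries.

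MycER activation alone moved few of these genes. Upon OHT in shNT cells 8 of the 39 changed (20.5%), against 17.4% of the 10272 genes tested, so the genes were called about as often as others. Those that rose were TAGLN, CNN1, SRF, ACTG1 and ACTB, with log2 fold changes from 0.32 to 1.19, and those that fell were TGFB1I1, PALLD and TLN1, with -1.07 to -0.40. All genes tested were called higher in 9.11% and lower in 8.27% of cases. The median log2 fold change of the 39 genes was -0.03, equal to the median over all genes tested (-0.03). The libraries of the groups did not overlap for 16 of the 39, against 36.1% of all genes tested. The count of called genes depended on single libraries: it was 5, 4 and 5 without shNT replicate 1, 2 and 3, respectively, and 14 and 5 when shNT OHT replicate 1 or 3 was left out.

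In the libraries labelled shCDK12, without OHT, most of the actin and adhesion genes fell. Against shNT, 26 of the 39 were lower and 4 higher, 30 in all (76.9%). The background was high, since 61.9% of the 11718 genes tested were called, 30.6% lower and 31.3% higher. The median log2 fold change of the 39 genes was -0.64, and that of all genes tested 0.01. Among the largest falls were VCL, FHL2, PDLIM7 and PALLD, with log2 fold changes from -1.84 to -1.64; TGFB1I1 (-3.05) and ACTA2 (-1.61) were also lower, but these scarce genes passed the count filter only through the shNT libraries, and without both 24 of 37 were lower and 4 higher. With the labels shCDK12 and shCDK12 with OHT exchanged, 26 of the 39 were lower and 3 higher (median -0.46), against 55.9% of all genes called. The genes that rose were LIMA1, CNN1, FHL1 and ACTG1, with 0.27 to 0.55, of which LIMA1 and FHL1 were chosen after their values were seen. SRF, ACTB, ACTN4, TAGLN2, MYL6, MYH10, CFL1, PFN1 and PDLIM5 did not pass the test. The libraries of the groups did not overlap for 31 of the 39, against 65% of all genes tested.

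With MycER active in both backgrounds, the actin and adhesion genes were again lower in the libraries labelled shCDK12. Against shNT OHT, 21 were lower and 3 higher (LIMA1, MYL6 and PDLIM5, the last 2 chosen after their values were seen), 24 in all (61.5%). Of the 11668 genes tested 45.4% were called, 22.7% lower and 22.7% higher. The median of the 39 genes was -0.46 and that of all genes 0.02; leaving out replicate 1 of shNT OHT gave -0.33 for the 39, and leaving out its replicate 2 gave -0.57. Among the largest falls were TAGLN, ZYX, VCL and MYL9, with log2 fold changes from -2.11 to -1.35; without TGFB1I1 and ACTA2, which passed the filter through the shNT libraries, 20 of 37 were lower and 3 higher. With the labels exchanged, 28 of 38 were lower and 0 higher (median -0.58), against 39.2% of all genes called. The groups' libraries did not overlap for 27 of the 39, against 55.2% of all genes. Called lower in both comparisons of the shRNA labels, which share no library, were 15 of the 39, against 10.9% of the 11440 genes tested in both. These were the LIM and stress fibre genes FHL2, PDLIM7 and ZYX, the crosslinkers ACTN1 and FLNC, the calponin family genes TAGLN, CNN2 and CNN3, the tropomyosins TPM2 and TPM4, the myosin genes MYL9 and MYH9, and VCL, ACTA2 and MRTFA. Of these 15, ACTA2 passed the count filter only through the shNT libraries, so its calls lend no support. LIMA1 was the gene called higher in both. Across the 39 genes the log2 fold changes of these comparisons had a Pearson correlation of 0.49, and across all genes 0.35; genes are not independent replicates.

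**Figure D2:**
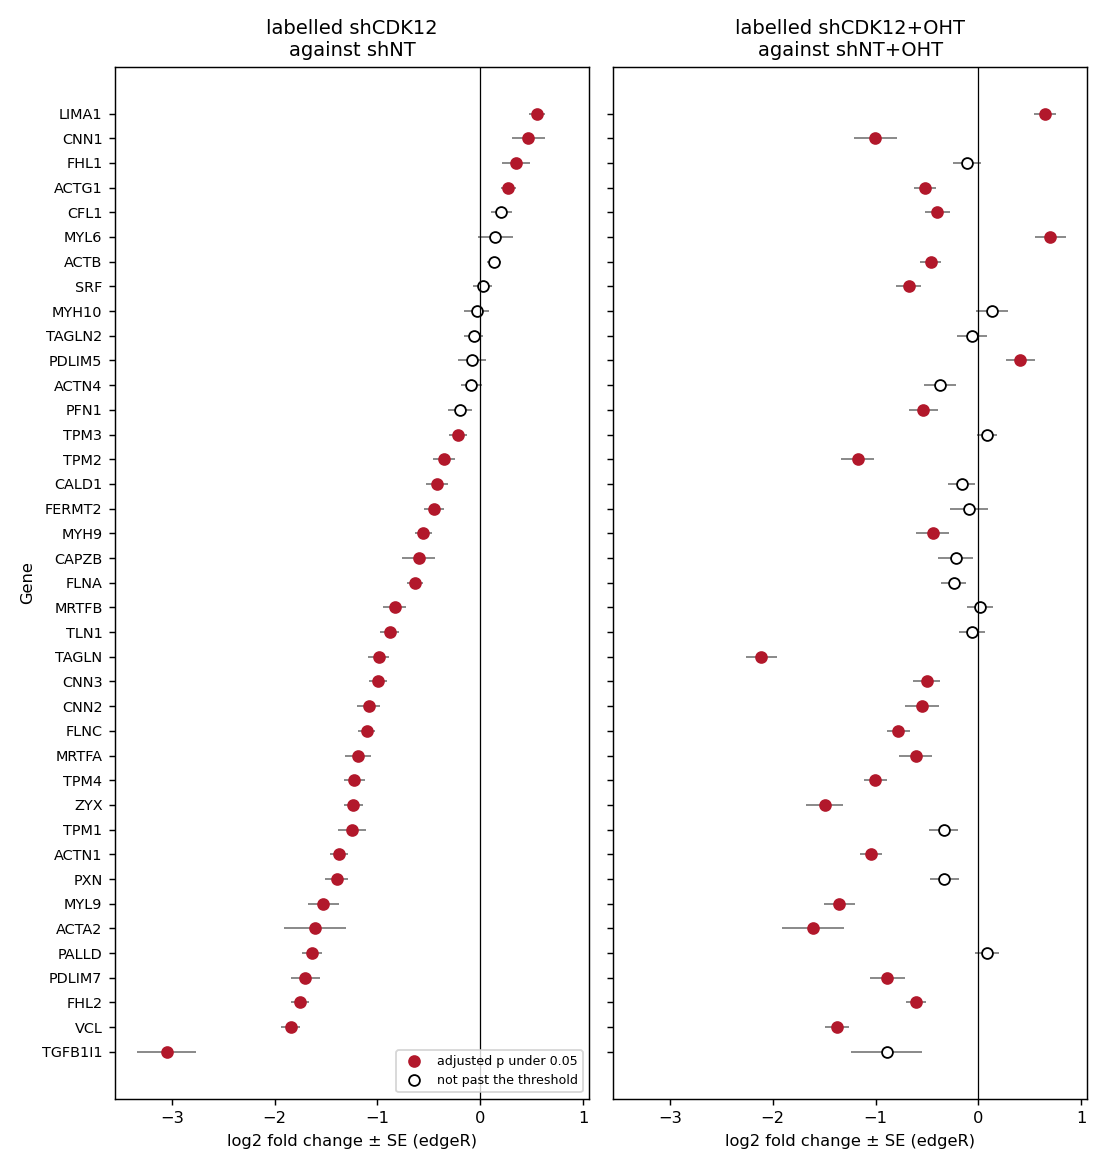
Log2 fold change ± SE of each of the 39 genes for libraries labelled shCDK12 against shNT without OHT (left) and with OHT (right), n = 3 libraries per group, in the order of the left panel; filled points passed edgeR's test. Most points lie left of 0 in both panels, LIMA1 lies right in both, and TAGLN moves from -0.99 to -2.11.

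The response to OHT, as labelled, differed between the backgrounds. Upon OHT in cells labelled shCDK12, 21 genes rose and 5 fell of the 37 tested, 26 in all (70.3%), and TGFB1I1 and ACTA2 were below the count filter. Of the 12519 genes tested 49% were called, 25.5% higher and 23.6% lower. The median of the 37 genes was 0.33 and that of all genes 0.02. PALLD, FHL2, PXN, PDLIM7 and MYL9 rose most, with log2 fold changes from 0.56 to 1.04, and ACTB, ACTG1, CNN1, TPM2 and CFL1 fell, with -0.46 to -0.19; TPM2 and CFL1 were chosen after their values were seen. The groups' libraries did not overlap for 29 of the 37, against 56.3% of all genes tested. Every one of these directions turns if the labels shCDK12 and shCDK12 with OHT are exchanged, which gives 5 higher, 21 lower and a median of -0.33.

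The test of the difference itself, the interaction of OHT and shRNA over all 12 libraries, called 19 of the 39 genes (48.7%), 11 with a higher response in the cells labelled shCDK12 and 8 with a lower one. Over all 11699 genes tested it called 45.1%, 23.2% higher and 21.9% lower, so the 39 genes were called about as often as others. The median interaction was 0.28 for the 39 genes and 0.04 for all. The first direction held TGFB1I1, PALLD, FHL2, PXN, TPM1, MRTFB, TLN1, PDLIM7, MRTFA, CNN3 and VCL. The other direction held CNN1, TAGLN, TPM2, ACTG1, SRF, CFL1, ACTB and FHL1. TGFB1I1 and ACTA2 passed the count filter only through the shNT libraries, so the value of TGFB1I1 lends no support. Without both, 18 of 37 were called, 10 higher and 8 lower. Between the OHT responses in each background, which share no library, 28 of 37 genes had opposite signs (75.7%), against 71.0% of all genes, and the Pearson correlation across genes was -0.55 for the 37 and -0.62 for all. The 5 genes called in both, ACTB, ACTG1, CNN1, PALLD and TLN1, were all opposite, as were 97.7% of all genes called in both. With the labels exchanged the interaction was called for 7 of the 39 genes, 0 higher and 7 lower (median -0.34), and for 6.26% of all genes in place of 45.1%. Which assignment is right was not tested, so a difference of the OHT responses between the backgrounds holds for the labels as given.

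**Figure D3:**
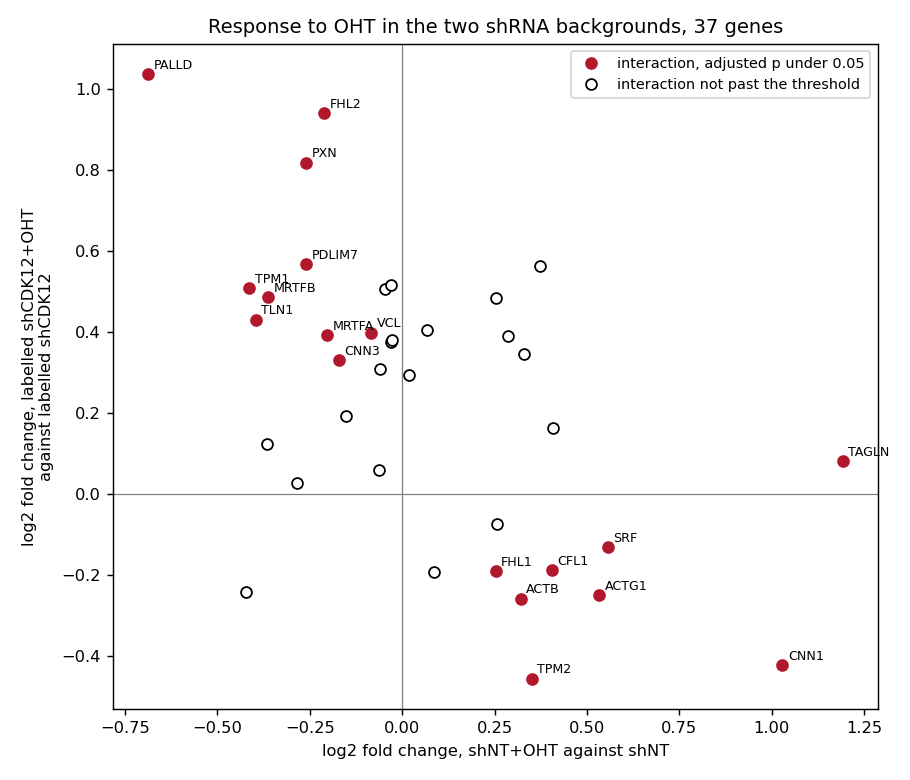
Log2 fold change upon OHT in shNT cells (horizontal) against that in cells labelled shCDK12 (vertical) for the 37 genes tested in both, 3 libraries per group; filled and named points passed the interaction test. PALLD, FHL2 and PXN lie in the upper left and CNN1, ACTG1, ACTB and SRF in the lower right, while TAGLN rose by 1.19 in shNT cells and lies at 0.08 on the vertical axis.

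Among the regulators, SRF rose upon OHT in shNT cells, whereas MRTFA and MRTFB fell in the libraries labelled shCDK12. SRF (gene 6722), the transcription factor itself and a gene that SRF is known to activate, stood at 215, 202 and 202 CPM in shNT and 354, 261 and 313 CPM upon OHT (log2 fold change 0.56 ± 0.13 SE, n = 3, edgeR adjusted p = 0.00793). It stood at 220, 182 and 226 CPM in libraries labelled shCDK12 (0.02, adjusted p = 0.849 against shNT, edgeR) and at 201, 197 and 172 CPM with OHT. Every shNT OHT library was above all 9 others, which overlapped. With OHT, SRF was lower in libraries labelled shCDK12 than in shNT (-0.68, edgeR adjusted p = 0.00139), and its OHT response was lower in that background (interaction -0.73, edgeR adjusted p = 0.000987). The rise in shNT cells lost its call without shNT replicate 2 (edgeR adjusted p = 0.0625), and the change upon OHT in cells labelled shCDK12 (-0.13, edgeR adjusted p = 0.239) was -0.25 with an adjusted p of 0.0100 (edgeR) without shCDK12 replicate 2.

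MRTFA (gene 57591), the cofactor first named MKL1, stood at 122, 117 and 120 CPM in shNT and at 64.9, 43.8 and 50.2 CPM in libraries labelled shCDK12, a 2.28-fold fall with no overlap (edgeR adjusted p = 5.82e-09). Upon OHT it was 122, 79.1 and 113 CPM in shNT cells and 69.1, 72.5 and 63.1 CPM in libraries labelled shCDK12, again without overlap (log2 fold change -0.61, edgeR adjusted p = 0.00869; 0.0561 without shCDK12 OHT replicate 3). Its rise upon OHT in cells labelled shCDK12 (0.39, edgeR adjusted p = 0.0117) rested on groups that overlapped and lost its call without shCDK12 replicate 2 or 3 or shCDK12 OHT replicate 2 (adjusted p from 0.0528 to 0.0748, edgeR). Its interaction (0.54, edgeR adjusted p = 0.0446) lost its call without any of 9 of the 12 libraries, with adjusted p up to 0.142 (edgeR). SGSM3 overlaps MRTFA in RefSeq, and whether counting used strand is not given in the sources used here.

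MRTFB (gene 57496), the related cofactor, stood at 174, 151 and 129 CPM in shNT, 112, 131 and 121 CPM in shNT OHT, 94.8, 81.2 and 81.0 CPM in libraries labelled shCDK12 and 128, 116 and 114 CPM there with OHT. It fell 1.78-fold in the libraries labelled shCDK12 (edgeR adjusted p = 2.70e-07) and rose 1.4-fold upon OHT among them (edgeR adjusted p = 0.000242), and neither pair of groups overlapped. With OHT the backgrounds overlapped (log2 fold change 0.01, edgeR adjusted p = 0.936), and the OHT responses differed (interaction 0.82, edgeR adjusted p = 0.000596).

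The actins, the building blocks of the filaments, split by isoform. ACTB (gene 60), the main cytoplasmic actin, stood at 2877, 2791 and 2595 CPM in shNT and at 3837, 2998 and 3726 CPM upon OHT (log2 fold change 0.32 ± 0.10 SE, n = 3, edgeR adjusted p = 0.0350). Under the shCDK12 label it stood at 3057, 2895 and 3034 CPM, just above shNT (0.13, edgeR adjusted p = 0.101), and with OHT at 2525, 2662 and 2316 CPM, below all others labelled shCDK12 (-0.26, edgeR adjusted p = 0.00520). As labelled, ACTB thus rose upon OHT in shNT cells and fell in the other background (interaction -0.61, edgeR adjusted p = 0.000557). With OHT, ACTB was lower in libraries labelled shCDK12 than in shNT, without overlap (-0.46, edgeR adjusted p = 0.00422). The rise lost its call without any of the 3 shNT libraries or shNT OHT replicate 3 (adjusted p from 0.0856 to 0.179, edgeR), and the value against shNT without OHT gained one without shCDK12 replicate 2 (0.15, edgeR adjusted p = 0.0315).

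ACTG1 (gene 71), the other cytoplasmic actin, was likewise highest in shNT OHT. It stood at 1022, 1054 and 1036 CPM in shNT, 1687, 1413 and 1510 CPM in shNT OHT, 1221, 1251 and 1267 CPM in libraries labelled shCDK12 and 1064, 1159 and 918 CPM there with OHT. It rose 1.45-fold upon OHT in shNT cells (edgeR adjusted p = 0.00187) and 1.21-fold in the libraries labelled shCDK12 (edgeR adjusted p = 0.00158). It fell 1.19-fold upon OHT among the libraries labelled shCDK12 (edgeR adjusted p = 0.0138), a call lost without shCDK12 replicate 3 (0.0537) or shCDK12 OHT replicate 3 (0.113). With OHT, ACTG1 was lower in libraries labelled shCDK12 than in shNT (-0.52, edgeR adjusted p = 0.00245). None of these pairs of groups overlapped. ACTB and ACTG1 have processed pseudogenes and closely related coding sequences, so reads shared with copies make the values of both uncertain.

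ACTA2 (gene 59), the smooth muscle actin that stress fibres take up in contractile cells, was scarce, with as few as 15 raw counts in a library. It stood at 10.3, 13.6 and 9.35 CPM in shNT, 16.7, 16.8 and 10.8 CPM in shNT OHT, 3.62, 3.49 and 3.97 CPM in libraries labelled shCDK12 and 4.37, 5.47 and 3.82 CPM there with OHT. No library labelled shCDK12 reached any shNT library. The fitted folds against shNT, 3.06 lower without OHT and 3.05 lower with OHT, rest on a gene that passed the count filter only through the shNT libraries and are given without a p. The response to OHT was 0.33 in shNT cells (edgeR adjusted p = 0.505), with overlapping groups. ACTA2 overlaps FAS and an antisense RNA in RefSeq, so its counts may hold reads of these.

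**Figure D4:**
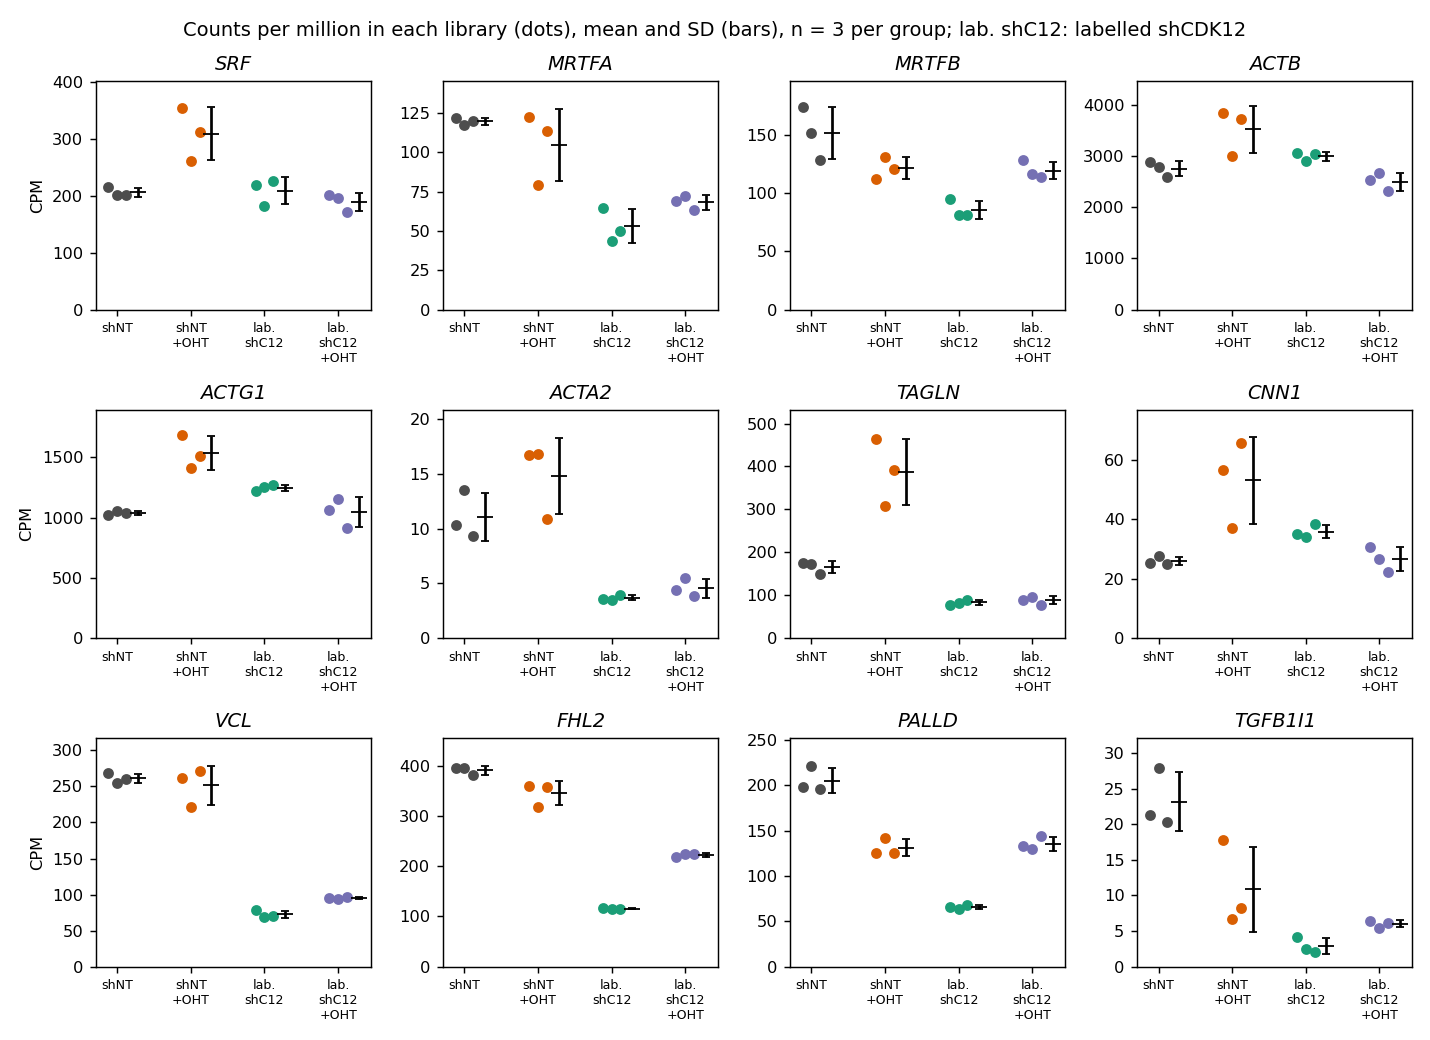
CPM of 12 genes in each library (dots, 3 per group) with the mean and SD (bars), every vertical axis starting at 0. SRF, ACTB, ACTG1, TAGLN and CNN1 are highest in shNT OHT, and VCL and FHL2 are low in both groups labelled shCDK12. PALLD averages 66.0 CPM without and 135 CPM with OHT, as labelled, among the libraries labelled shCDK12.

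The calponin family, small proteins that bind along actin filaments, includes both genes that rose most upon OHT in shNT cells, TAGLN and CNN1. TAGLN (transgelin, gene 6876) stood at 175, 173 and 149 CPM in shNT and at 463, 309 and 392 CPM upon OHT, a 2.29-fold rise (edgeR adjusted p = 9.81e-05). Among those labelled shCDK12 it stood at 78.2, 82.7 and 89.9 CPM without and 90.0, 96.5 and 78.0 CPM with OHT. No library labelled shCDK12 reached an shNT library, and the former overlapped one another whether or not OHT was given (0.08, edgeR adjusted p = 0.522). Against shNT, TAGLN was 1.98-fold lower in libraries labelled shCDK12 without OHT (edgeR adjusted p = 2.90e-09) and 4.31-fold lower with OHT (edgeR adjusted p = 5.33e-06), and the interaction was -1.15 (edgeR adjusted p = 3.42e-05). PCSK7 overlaps TAGLN in RefSeq.

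CNN1 (calponin 1, gene 1264) rose upon OHT in shNT cells as TAGLN did, but without OHT it was not low in the libraries labelled shCDK12. It stood at 25.3, 27.5 and 24.9 CPM in shNT, 56.8, 37 and 65.6 CPM in shNT OHT, 35.2, 34.2 and 38.3 CPM in libraries labelled shCDK12 and 30.6, 26.8 and 22.4 CPM there with OHT. It rose 2.04-fold upon OHT in shNT cells (edgeR adjusted p = 0.00599) and 1.38-fold in the libraries labelled shCDK12 (edgeR adjusted p = 0.0133), and fell 1.34-fold upon OHT among the latter (edgeR adjusted p = 0.0144). With OHT it was 2.00-fold lower in the libraries labelled shCDK12 than in shNT (edgeR adjusted p = 0.00279). None of these pairs overlapped, and the interaction was -1.50 (edgeR adjusted p = 7.42e-05). Of the other members, CNN2 and CNN3 fell in the libraries labelled shCDK12 with and without OHT, and TAGLN2, the form found in most cells, passed no test between the shRNA labels. CNN2 was steady in shNT (152 to 154 CPM) and stood at 64.0 to 84.2 CPM in libraries labelled shCDK12.

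Tropomyosins lie along the filament and set which myosins and binding proteins can reach it, and caldesmon (CALD1) restrains myosin on them. All 5 of these genes were lower in the libraries labelled shCDK12 without OHT, with log2 fold changes from -1.25 (TPM1) to -0.22 (TPM3). TPM4 went from 164 to 191 CPM in shNT to 67.5 to 81.6 CPM. With OHT, TPM2 and TPM4 were lower. TPM2 was also the tropomyosin that fell upon OHT among the libraries labelled shCDK12, from 138 to 157 CPM to 101 to 112 CPM, while TPM1, TPM4 and CALD1 rose.

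Myosin II pulls on the filaments, with MYH9 and MYH10 as heavy chains and MYL6 and MYL9 as light chains, MYL9 being the chain whose phosphorylation switches it on. MYL9 (gene 10398) stood at 82.7, 76.3 and 74.3 CPM in shNT, 121, 82.5 and 103 CPM in shNT OHT, 32.8, 21.6 and 28 CPM in libraries labelled shCDK12 and 40.1, 41.4 and 37.3 CPM there with OHT. It was 2.88-fold lower in libraries labelled shCDK12 without OHT (edgeR adjusted p = 1.21e-09) and 2.55-fold lower with OHT (edgeR adjusted p = 6.36e-05), and it rose 1.48-fold upon OHT among the libraries labelled shCDK12 (edgeR adjusted p = 0.00279), all without overlap. MYH9 was lower in both comparisons of the shRNA labels, and MYH10 passed none of the 5 tests. MYL6, the other light chain, was higher with OHT in the libraries labelled shCDK12 (50.1 to 55.6 CPM) than in shNT (31.8 to 34.9 CPM).

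The crosslinkers bundle or mesh filaments. ACTN1 (α-actinin 1) went from 397 to 438 CPM in shNT to 159 to 167 CPM in libraries labelled shCDK12 and stayed at 175 to 197 CPM with OHT, without overlap. FLNC fell in both comparisons, from 1688 to 1784 CPM to 739 to 899 CPM without OHT, FLNA fell without OHT, and ACTN4 passed none of the 5 tests. In shNT OHT the first replicate was the highest for all 4 genes, with FLNA at 1468, 1085 and 1036 CPM. Of the genes of filament turnover, CAPZB (a capping protein subunit) was lower without OHT, CFL1 (cofilin, which severs filaments) and PFN1 (profilin, which feeds monomers to growing ends) were lower with OHT, and CFL1 had a lower OHT response in the cells labelled shCDK12.

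Focal adhesion proteins link the filaments to integrins: TLN1 (talin) and FERMT2 (kindlin 2) bind the integrin tails, VCL (vinculin) clamps talin to actin, and PXN (paxillin) is a scaffold for signalling. All 4 genes fell in the libraries labelled shCDK12 without OHT and rose upon OHT among them. VCL (gene 7414) stood at 268, 255 and 261 CPM in shNT, 262, 221 and 271 CPM in shNT OHT, 78.4, 68.8 and 70.8 CPM in libraries labelled shCDK12 and 95.8, 94.1 and 96.4 CPM there with OHT. It was 3.59-fold lower without OHT (edgeR adjusted p = 1.36e-15) and 2.59-fold lower with it (edgeR adjusted p = 1.37e-05). The libraries labelled shCDK12 were far below every shNT library, and upon OHT they were higher than without it (0.40, edgeR adjusted p = 0.00127).

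PXN (gene 5829) came closer to the shNT level. It stood at 169, 179 and 174 CPM in shNT, 180, 126 and 136 CPM in shNT OHT, 75.8, 55.5 and 68.2 CPM in libraries labelled shCDK12 and 118, 120 and 109 CPM there with OHT. It was 2.63-fold lower without OHT (edgeR adjusted p = 1.53e-11) and rose 1.76-fold upon OHT among the libraries labelled shCDK12 (edgeR adjusted p = 3.45e-06). With OHT the groups still did not overlap, but the difference did not pass the test (-0.33, edgeR adjusted p = 0.0777). The interaction was 1.03 (edgeR adjusted p = 0.000149). AP3M1 overlaps VCL and an antisense RNA overlaps PXN in RefSeq.

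The LIM and stress fibre proteins sit on strained filaments and at adhesions, and several carry signals to the nucleus. ZYX (zyxin, gene 7791), which repairs strained fibres, stood at 304, 269 and 293 CPM in shNT, 508, 291 and 369 CPM in shNT OHT, 130, 109 and 127 CPM in libraries labelled shCDK12 and 144, 148 and 115 CPM there with OHT. It was 2.35-fold lower without OHT (edgeR adjusted p = 6.23e-12) and 2.82-fold lower with it (edgeR adjusted p = 0.000103). The OHT libraries overlapped those without OHT in either background, so ZYX was low in libraries labelled shCDK12 whether or not OHT was given.

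FHL2 (gene 2274), a LIM-only coactivator that binds SRF, stood at 396, 397 and 381 CPM in shNT and at 117, 115 and 115 CPM in libraries labelled shCDK12, 3.36-fold lower (edgeR adjusted p = 4.69e-16). With OHT it stood at 360, 318 and 359 CPM in shNT and 218, 225 and 225 CPM in libraries labelled shCDK12. The 4 groups did not overlap anywhere. As labelled, FHL2 was 1.92-fold higher with OHT than without it in the libraries labelled shCDK12 (edgeR adjusted p = 1.24e-08). The response in shNT cells was -0.21 (edgeR adjusted p = 0.190), and the interaction was 1.12 (edgeR adjusted p = 4.66e-07). PDLIM7 (gene 9260), an adaptor with PDZ and LIM domains, had the same order at lower values, with 72.4, 70.7 and 73.3 CPM in shNT, 76.2, 56.4 and 51.6 CPM in shNT OHT, 20.3, 21.1 and 24.7 CPM in libraries labelled shCDK12 and 33.7, 31.4 and 32.9 CPM there with OHT. Its fall was 3.25-fold without OHT (edgeR adjusted p = 5.79e-11), and its rise upon OHT among the libraries labelled shCDK12 1.48-fold (edgeR adjusted p = 0.00171).

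PALLD (palladin, gene 23022), a scaffold of stress fibres, responded to OHT in opposite directions in the backgrounds as labelled. With the labels shCDK12 and shCDK12 with OHT exchanged, it would fall upon OHT in both. PALLD fell from 198, 222 and 196 CPM to 126, 142 and 126 CPM upon OHT in shNT cells (-0.69 ± 0.13 SE, edgeR adjusted p = 0.00258). Among those labelled shCDK12 it rose from 65.4, 63.9 and 68.6 CPM to 133, 129 and 144 CPM (1.04 ± 0.09 SE, edgeR adjusted p = 2.21e-08). With OHT the backgrounds overlapped (0.08, edgeR adjusted p = 0.598), whereas without OHT the libraries labelled shCDK12 were 3.11-fold lower (edgeR adjusted p = 5.03e-14). The interaction was 1.70 (edgeR adjusted p = 1.91e-08). CBR4 and other RefSeq genes overlap PALLD.

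TGFB1I1 (gene 7041), which encodes the paxillin relative Hic-5, was scarce, with as few as 8 raw counts in a library. It stood at 21.3, 27.9 and 20.3 CPM in shNT, 17.7, 6.73 and 8.20 CPM in shNT OHT, 4.10, 2.54 and 2.08 CPM in libraries labelled shCDK12 and 6.42, 5.47 and 6.18 CPM there with OHT. The libraries labelled shCDK12 did not overlap the shNT libraries; the fitted fold, 8.29 lower, rests on a gene that passed the count filter only through the shNT libraries and is given without a p. Upon OHT in shNT cells it fell 2.10-fold (edgeR adjusted p = 0.0413), but the shNT OHT libraries were spread, and the call was lost without any of 5 of the 6 libraries (adjusted p from 0.0807 to 0.186, edgeR). With OHT the backgrounds did not overlap and did not pass the test (-0.89, edgeR adjusted p = 0.0569). LIMA1 (EPLIN, a bundling protein) went the other way, from 255 to 274 CPM in shNT to 380 to 396 CPM in libraries labelled shCDK12 and 508 to 512 CPM there with OHT.

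Genes with and without a CArG box in the window are set side by side, with no test of the difference. In the libraries labelled shCDK12 without OHT, of the 9 genes with a box 6 were lower and 2 higher (median -1.09), and of the 27 with a window but no box 18 were lower and 2 higher (median -0.55). Of all genes tested, 30.6% were called lower and 31.3% higher. The 9 include TGFB1I1 and the 27 include ACTA2. Both passed the count filter only through the shNT libraries, so their falls lend no support. Upon OHT among the libraries labelled shCDK12, 4 of 8 with a box rose and 1 fell, and 16 of 26 without rose and 3 fell. Of all genes tested there, 25.5% were called higher and 23.6% lower. The windows do not cover distal elements.

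The wider actin and adhesion machinery was read from lists of genes outside the 39. In the libraries labelled shCDK12 without OHT, 11 of 15 other actin-linked LIM genes were lower and none higher (median -0.88), with ABLIM1 at -1.91 and FBLIM1 at -2.07. Of 17 other focal adhesion adaptors and kinases 10 were lower and 3 higher (median -0.39), with DOCK1 at -1.17 and TNS3 at -1.24. Of 18 genes of RhoA-ROCK signalling, which drives actin polymerization and myosin activity upstream of MRTF, 10 were lower and 4 higher (median -0.55), with the kinases LIMK1 at -1.41 and MYLK at -0.75. Arp2/3 genes, which build branched networks, were lower for 9 and higher for 2 of 18 (median -0.24), with ACTR2 at -1.0 and WASF1 at 0.96. Formins, which build straight filaments, were lower for 3 and higher for 2 of 8 (median -0.03), with DAAM1 at -1.11 and DIAPH2 at 1.22. The share of all genes called lower was 30.6% and higher 31.3%. With OHT these lists did not show the same fall. Against shNT OHT, the libraries labelled shCDK12 had 4 other LIM genes higher and 4 lower of 16 (median 0.04), 7 adaptors and kinases higher and 3 lower of 17 (median 0.21), and 7 RhoA-ROCK genes higher and 3 lower of 18 (median 0.27). Arp2/3 genes were higher for 6 and lower for 0 of 18 (median 0.10), and formins higher for 1 and lower for 4 of 8 (median -0.46), where 22.7% of all genes were called in each direction.

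Genes of the ternary complex branch of SRF moved both ways. The immediate-early targets FOSB (2.33), EGR1 (1.65), FOS, IER2 and MCL1 were higher in the libraries labelled shCDK12 without OHT, and the cofactors ELK1, ELK3 and ELK4 and the target EGR2 were lower, 5 higher and 4 lower of 10 tested (median 0.42). EGR1 was 1494 ± 197 CPM (SD, n = 3) in shNT and 4646 ± 335 CPM in libraries labelled shCDK12, and FOS 196 ± 10.5 and 606 ± 54.1 CPM. Upon OHT among the libraries labelled shCDK12, EGR1 fell to 1972 ± 225 CPM and FOS to 284 ± 14.8 CPM. With OHT, 2 of the 10 were higher and 5 lower than in shNT OHT (median -0.33). FOS, IER2, MCL1, ELK1, ELK3, ELK4 and EGR2 were chosen after their values were seen.

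The interaction of OHT and shRNA was higher for 12 and lower for 0 of 16 other LIM genes, with ABLIM1 at 2.06 and FBLIM1 at 1.80. It was higher for 12 and lower for 1 of 17 adhesion adaptors and kinases, with DOCK1 at 1.75 and TNS3 at 1.46. RhoA-ROCK genes were higher for 11 and lower for 1 of 18, with MYLK at 1.72 and LIMK1 at 1.55, and Arp2/3 genes higher for 11 and lower for 1 of 18. Formins were split, with DIAPH2 at -2.13 and DAAM1 at 1.84. Immediate-early genes and their cofactors were lower for 6 and higher for 1 of 10, with EGR1 at -1.78 and FOSB at -1.70. All genes tested were higher in 23.2% and lower in 21.9%. The interaction shares its libraries with the other comparisons. The exchange of labels was not run for these lists, so their directions hold for the labels as given.

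**Figure D5:**
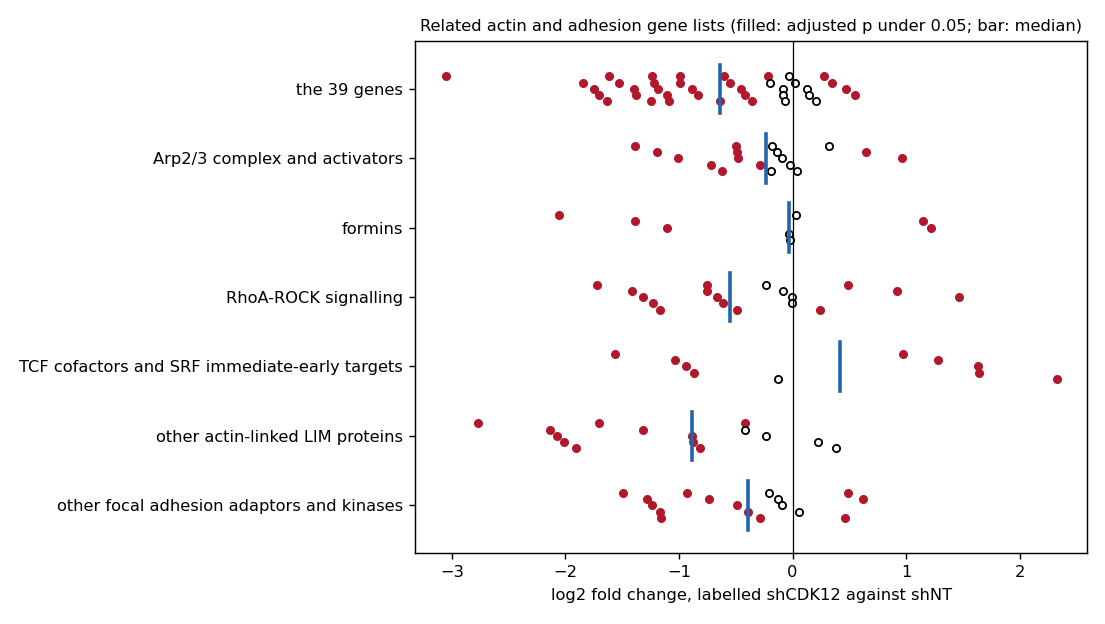
Log2 fold change of each tested gene in the libraries labelled shCDK12 against shNT without OHT, for the 39 genes and 6 related lists; filled points passed edgeR's test and bars are medians. The medians of the 39 genes and of the other LIM genes lie at -0.64 and -0.88, and the immediate-early list spreads from ELK3 on the left to FOSB at 2.33 on the right.

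Markers of cell type were read beside these values. The mesenchymal markers of an osteosarcoma line were present, with 6 of 7 at 10 or more counts in every library, and TWIST1 at or near 0. Their summed level was 1576 to 1633 CPM in shNT, 1050 to 1186 CPM in shNT OHT, 431 to 449 CPM in libraries labelled shCDK12 and 587 to 605 CPM there with OHT. All 6 markers tested were lower in the libraries labelled shCDK12 without OHT (median -1.47), with FN1 (fibronectin, the matrix ligand of adhesions) at -4.09 and RUNX2 at -1.81. Of all genes tested, 30.6% were called lower there. In that comparison the 6 markers moved in the direction of most of the actin and adhesion genes. Upon OHT in shNT cells the 39 genes had a median of -0.03, while 4 of the 6 markers were lower and 0 higher (median -0.63), against 8.27% of all genes called lower. With OHT, 3 of 6 markers were lower in the libraries labelled shCDK12 than in shNT OHT (median -0.51), against 22.7% of all genes. The exchange of labels was not run for the markers. Epithelial markers summed to 37.1 to 46.4 CPM in shNT and 56.3 to 66.1 CPM in libraries labelled shCDK12, and to 24.4 to 37.8 CPM and 110 to 121 CPM with OHT. Of these 5 markers CLDN4 carried most of the sum, at 106 ± 6.75 CPM (SD, n = 3) in the libraries labelled shCDK12 with OHT, while ESRP1 and GRHL2 were below 1 CPM on average in every group. Differentiated smooth muscle markers summed to 17.0 to 35.9 CPM over all libraries, and endothelial and blood markers to at most 5.79 and 3.62 CPM. The part of these shifts in the values of the 39 genes was not tested, and in bulk libraries fewer cells of a kind and less RNA per cell cannot be told apart.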

How the data were processed

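EU-labelled RNA of 12 libraries of U2OS MycER cells was sequenced from a stranded total RNA kit. The authors deposited 1 table of raw counts per gene, without normalization, for 23434 human genes by Entrez gene identifier. The submitters' processing notes name STAR 2.7.5c, featureCounts 1.4.5-p1 and the build hg19; the annotation and the strand setting of the counting are not given in the sources used here. No mouse rows were in the table, so scaling to the mouse RNA mixed in (10 µg to 40 µg of human RNA) was not done. Symbols came from RefSeq (GRCh38.p14) by identifier for 23284 rows, and the other 150 rows were tested without a name. No coordinates of genes are given, because the annotation at hand is of another build than the counts; promoter windows are RefSeq's own. RefSeq genes overlap 24 of the 39 genes.

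Groups were taken from the labels. Counts were fitted with edgeR 4.0.16 in R 4.3.3 (TMM normalization, quasi-likelihood test, Benjamini-Hochberg adjustment over all genes tested, threshold 0.05) for genes whose normalized count averaged over 32 in the fitted libraries: 4 comparisons of 6 libraries each and the interaction over all 12. Lists are described by counts and medians, with no set test. The list of 39 genes, the other lists and the tests were chosen with earlier results of these data known. Values are given per library for SRF, MRTFA, MRTFB, ACTB, ACTG1 and ACTA2 and for the 5 called genes with the largest absolute log2 fold change in each comparison, and, of each other list, for the 2 called genes with the largest interaction. The scripts were tested on simulated data. No pair of libraries was identical. Alternatives were upper-quartile normalization, DESeq2 1.42.0, no filter or a mean above 100, the replicate number as a block, thinning to 1251695 counts, all 12 libraries in 1 fit, and leaving out each library; after seeing the data, the labels shCDK12 and shCDK12 with OHT were exchanged, and TGFB1I1 and ACTA2 were left out.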

Additional observations from a re-analysis of the deposited data

Results flagged for a closer look

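The response to OHT differed between shNT cells and cells labelled shCDK12 for 19 of the 39 genes by edgeR's interaction test over 12 libraries, against 45.1% of all genes tested. Among the genes given library by library, the interaction (log2 response in cells labelled shCDK12 minus that in shNT cells) was positive for PALLD (1.70), FHL2 (1.12), MRTFB (0.82) and MRTFA (0.54). It was also positive for the scarce TGFB1I1 (2.12), which passed the count filter only through the shNT libraries, so this value lends no support. It was negative for CNN1 (-1.50), TAGLN (-1.15), ACTG1 (-0.82), SRF (-0.73) and ACTB (-0.61). The MRTFA value kept its call without 3 of the 12 libraries and lost it without each of the other 9. With OHT the MRTFB libraries of the backgrounds overlapped, and without OHT they did not. With the labels shCDK12 and shCDK12 with OHT exchanged, an alternative chosen after seeing the data, the interaction was called for 7 of the 39 genes, all lower, and for 6.26% of all genes. CDK12 was not lower without OHT in the libraries labelled shCDK12, and under the exchange it would be lower than shNT in both pairs of groups. Which assignment is right was not tested, so the signs above hold for the labels as given. The part of depth in these values was not tested beyond thinning every library to the smallest total.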

How the results depend on the processing

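Upon OHT in shNT cells the number of the 39 genes called, 8, was 16 with all 12 libraries in 1 fit and 4 to 14 when libraries were left out in turn. Their median log2 fold change there (-0.03) became 1.48e-05 after thinning and 0.0088 with all 12 libraries in 1 fit, and ran from -0.053 to 0.058 when libraries were left out. With OHT, the median in the libraries labelled shCDK12 against shNT ran from -0.57 to -0.33 when libraries were left out. Values that were not called and changed sign were SRF in the libraries labelled shCDK12 against shNT (-0.017 without the filter, -0.028 to 0.12 leaving out libraries), MRTFB with OHT (-0.0085 with DESeq2, -0.058 thinned, -0.014 with all 12 libraries, -0.058 to 0.053 leaving out libraries) and the interaction of ACTA2 (0.021 with upper-quartile normalization, 0.048 without the filter, -0.23 to 0.15 leaving out libraries). Of 52 single-gene results, 39 kept their call and sign under every alternative but the exchange of labels given next, which was not run gene by gene, 7 lost a call, 3 gained one and 3 changed sign, none of the last being called; beside those named above, ACTB upon OHT in shNT cells lost its call with upper-quartile normalization (adjusted p = 0.0509), MRTFA lost its calls upon OHT in cells labelled shCDK12 (0.336) and in the interaction (0.0780) after thinning, and the former also with all 12 libraries in 1 fit (0.0508), and MRTFB upon OHT in shNT cells gained one with all 12 libraries in 1 fit (0.0484), all by edgeR. Without the filter the median of all genes was 0.12 in the libraries labelled shCDK12 against shNT, 0.21 with OHT and 0.12 in the interaction, so directions there are relative to a shifted centre.

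With the labels shCDK12 and shCDK12 with OHT exchanged, an alternative chosen after seeing the data, the median of the 39 genes became -0.46 against shNT, -0.58 against shNT OHT, -0.33 for OHT among the libraries labelled shCDK12 and -0.34 in the interaction, which called 7 of them. Leaving out TGFB1I1 and ACTA2, also chosen afterwards, moved no median by more than the spread between replicates and no count of called genes by over 1.5 times.

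The replicate number as a block gave 6 higher and 2 lower of the 39 genes upon OHT in shNT cells, 5 and 26 for the libraries labelled shCDK12 against shNT, 21 and 5 upon OHT among these, 2 and 21 with OHT against shNT OHT, and 14 and 8 in the interaction, or 8, 31, 26, 23 and 22 in all. Whether the numbers pair the libraries cannot be told from the correlations of their deviations. Of 18 pairs with the same number, 2 were over 0.1 (lowest -0.0918, median 0.0276, highest 0.304). Of 36 pairs with different numbers, 0 were (lowest -0.342, median -0.0185, highest 0.0998).

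Over all genes, the number called upon OHT in shNT cells was 1785, 3293 with all 12 libraries in 1 fit and 651 without shNT replicate 2. Depth limits TGFB1I1 and ACTA2 most, and thinning to the smallest total lowered the genes called to 4473, 3252, 3173 and 3223 in the other comparisons from 7258, 6139, 5295 and 5271.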
